A study of Mus musculus with 16 samples.

Results

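Hematopoietic stem cells (HSC) of wild-type mice of 32 weeks were compared with HSC of young wild-type mice of 9 to 12 weeks, on 3 expression arrays each. These 6 arrays were chosen by their titles alone from the 16 arrays of the series, and no measured value entered the choice. The series as a whole asks how HSC of mitochondrial mutator mice differ from normally ageing HSC. Beside the 2 groups compared here it holds 3 arrays of HSC from old wild-type mice of 24 months, 3 of HSC from 32-week mutator mice and 4 of common lymphoid progenitors (CLP), sorted from wild-type marrow at 8 to 12 weeks. The 32-week wild-type mice are labelled Polgtm1Lrsn+/+, unaltered at the locus of the mitochondrial DNA polymerase, and the mutator mice Polgtm1Lrsn-/-. The young and old mice are labelled wild type only, and every sample is labelled C57Bl6, female and bone marrow. Replicates are labelled biological, but how many mice gave the cells of 1 array, and by which surface markers they were sorted, is not given in the sources used here. Labelled cRNA was made from 4000 to 7000 sorted cells per array, so each group stands for small sorted populations.

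HSC sit in the bone marrow, mostly outside the cell cycle, and give rise to all blood cells. As mice age, HSC grow in number, give fewer lymphocytes and relatively more myeloid cells and platelets, and a known set of transcripts such as Clu, Selp and Nupr1 rises. Mice of 32 weeks are mature adults, between the young and old groups in age. Arrays of this kind read transcripts near their 3′ ends from a copy that starts at the poly-A tail. Bacterial transcripts with poly-A tails are added before labelling, and 3′ and 5′ probe sets of long transcripts such as beta-actin show how far the copies reach.

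The 2 groups of arrays differed in these controls. The poly-A spike probe sets had mean log2 (intensity + 16) levels of 10.03, 9.80 and 9.62 on the young arrays and of 13.56, 12.45 and 12.58 on the 32-week arrays. The log2 ratio of the 3′ over the 5′ beta-actin probe set was 2.39, 2.61 and 2.61 on the young arrays and 4.90, 4.24 and 5.26 on the 32-week arrays. Neither control overlapped between the groups, with differences of 3.04 and 2.26 on the log2 scale. Exact two-sided permutation tests gave p = 0.1 for both, the smallest that 3 against 3 arrays allow. Rules were chosen with earlier results of these data known, so the tests only describe this gap. Some other controls overlapped. The dap spike had 3′ over 5′ log2 ratios of 3.49, 3.48 and 3.52 on young and 3.08, 4.37 and 5.66 on 32-week arrays. Those of thr were 3.15, 3.17 and 3.09 and 2.73, 4.07 and 6.21. Mean hybridisation controls were 11.51, 11.18 and 10.94 and 12.82, 10.91 and 11.49. The ratios of Gapdh, lys and phe were higher at 32 weeks without overlap. Old arrays lay with the young ones (spikes 9.60 to 10.60, actin ratio 2.20 to 2.27), and mutator arrays with the 32-week wild-type ones (spikes 12.34 to 13.71, actin ratio 4.74 to 5.25). The CLP arrays had spikes of 12.55 to 13.22 and actin ratios of 2.11 to 3.85. The old arrays therefore stand on the young side of the control gap. At 32 weeks, age and whatever set the control probe sets apart cannot be told apart.

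**Figure D1:**
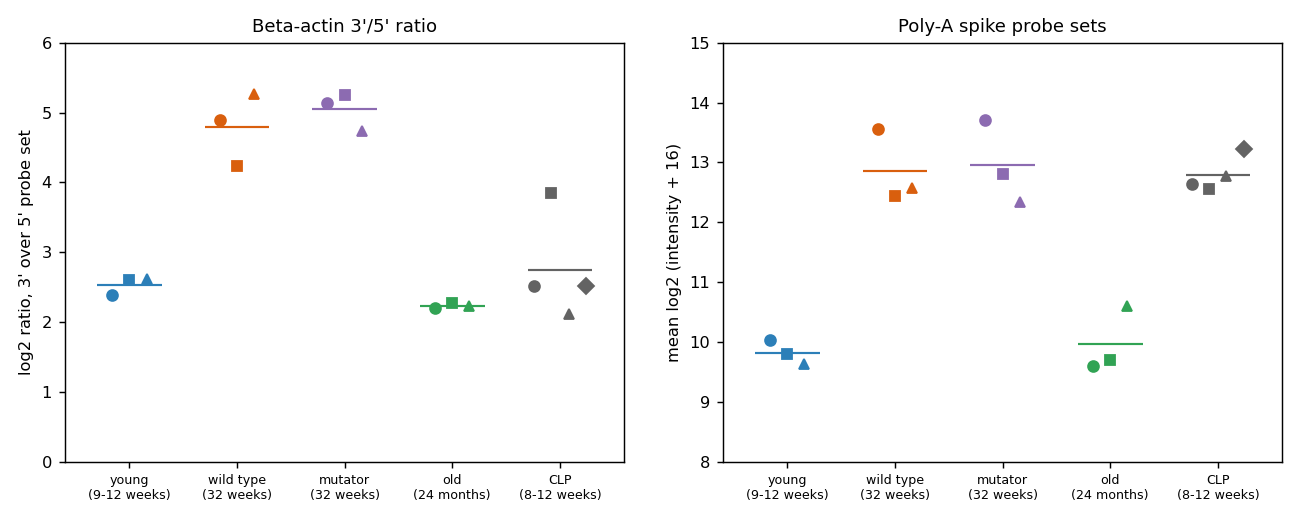
Each point is 1 array, each line a group mean: left, the log2 ratio of the 3′ over the 5′ beta-actin probe set; right, the mean log2 (intensity + 16) of the poly-A spike probe sets. Both groups of 32 weeks lie above the young and old groups in both panels, and the CLP arrays are high in the spikes alone, except for 1 actin ratio of 3.85.

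One array of the comparison goes against its label. On 32-week array 3, labelled female, Eif2s3y, a gene of the Y chromosome, stood at 552 and Xist, the RNA of the inactive X chromosome, at 9.12. The other 32-week arrays had Eif2s3y at 12.7 and 8.48 and Xist at 7838 and 8052, and the young arrays had Eif2s3y at 8.14 to 9.25 and Xist at 3507 to 8041. Each main count below is therefore also given without this array. The HSC label held against its markers: 6 of 8 marker genes had a probe set, none was at background, and their summed intensity was 8720 to 10807 in young and 6497 to 7931 in 32-week HSC. Markers of B, T and mast cells each summed to at most 337 in both groups, with Cd79a, Ebf1, Cd3d, Cd3g and Fcer1a at background at 32 weeks. Neutrophil markers were uneven within both groups, at 1299.7 to 5478 in young and 482 to 6170.3 in 32-week HSC. Macrophage markers summed to 197 to 573 in young, 117 to 152 in 32-week and 112 to 132 in old HSC.

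The RNA of 32-week HSC differed from that of young HSC in many genes, most of them lower. Of 13492 genes tested with limma on the log2 (intensity + 16) scale, 3269 passed an adjusted p of 0.05 (24.2% of those tested). Higher at 32 weeks were 879 genes (6.51%) and lower were 2390 (17.7%). In 5166 genes (38.3%) the 3 arrays of one age did not overlap those of the other. At least 2-fold differences were called in 385 genes that were higher and 1512 that were lower. Old HSC, read against the same 3 young arrays, had 180 calls (1.33%), of which 145 were higher. The spread between arrays was not alike: the median SD over genes was 0.13 in young, 0.14 in old, 0.36 in 32-week and 0.25 in mutator HSC. The fit pooled the variance of each gene over all these arrays, so a gene had the same SE in every comparison. That SE may be too wide for old against young and too narrow for 32 weeks against young. The counts of calls in the 2 comparisons are therefore not on an equal footing. In bulk RNA of sorted cells, fewer cells of a type and less RNA per cell cannot be told apart.

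The count of calls rests on the arrays and on how the control gap is treated. Without 32-week array 3, 2539 genes passed, 25.5% of them higher. With quantile normalization 41.7% of 3071 calls were higher, against 26.9% of the calls above, and without 32-week array 1 it was 38.1% of 3067. Leaving out young array 2 or 3 gave 2063 or 2078 calls. When the actin ratio entered the fit as a covariate, no gene passed in limma, with 1020 at an unadjusted p under 0.05 in place of 4897, and the median SE rose from 0.22 to 0.71. With the poly-A spike level as the covariate 55 genes passed, 49 of them higher.

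The largest rise was that of Ctse, which encodes cathepsin E, an aspartic protease of endosomes. Ctse intensity was 326, 360.0 and 333 on the young arrays and 2871, 5538 and 5287 on the 32-week arrays. No 32-week array came near the young ones, and the log2 difference was 3.63 ± 0.25 (SE, adjusted p = 3.91e-05). Mid1, a microtubule-associated ubiquitin ligase, rose from 29.7, 22.9 and 35 to 669, 421 and 124, a difference of 2.95 ± 0.57 (SE, adjusted p = 0.00406), with the 32-week arrays spread over a wide range. Meg3, an imprinted noncoding RNA of the Dlk1-Dio3 locus, was at 64.1, 130.5 and 146 on young and 554, 433 and 3057 on 32-week arrays. Array 3 held by far the most Meg3, the groups did not overlap, and the difference was 2.90 ± 0.68 (SE, adjusted p = 0.0103). Of the other 7 probe sets of Meg3, 1 passed (2.11) and 6 did not.

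Ppp1r15a, which encodes GADD34 and ends the translation block of the integrated stress response, rose by 2.49 ± 0.46 (SE, adjusted p = 0.00322), from 239.6, 129 and 172 to 879.8, 1243 and 1085. Dvl1, a transducer of Wnt signals, was tight within both groups at 443, 457 and 477 and 2213, 2632 and 3092, a difference of 2.47 ± 0.17 (SE, adjusted p = 3.91e-05). Its other probe set gave 0.64 and was not called. Nsmf rose by 2.35, Man2c1, a mannosidase of the cytosol, by 2.31, Zfp783 by 2.30 and Il17re, a receptor chain for interleukin 17C, by 2.29. Cxcr4 completes the 10 largest rises and is described below.

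The largest falls were in genes with high young levels. Tardbp, which encodes the RNA-binding protein TDP-43, stood at 2391, 2818 and 2591 on the young arrays and at 154, 617 and 144 on the 32-week arrays. The 32-week arrays were all far below the young ones, with array 2 the least, and Tardbp fell by 3.34 (SE 0.43, adjusted p = 0.000526). Of the other 4 probe sets of Tardbp, 1 was called lower (-1.18) and 3 were not called (-0.99, 0.05 and 0.33). Hmgb3, a chromatin protein of HSC and early progenitors, dropped from 3865, 3509.8 and 3506 to 535, 863 and 210.2, a difference of -2.93 ± 0.39 (SE, adjusted p = 0.000644). Msh6, of DNA mismatch repair, dropped from 1309, 1388 and 1352 to 57.3, 465 and 164, a difference of -2.88 ± 0.49 (SE, adjusted p = 0.00205). Array 2 was the highest of the 3 32-week arrays in each of these genes. It also had the lowest actin ratio (4.24) and the lowest spike level (12.45) of the 3. Between arrays 1 and 3 the order varied: Msh6 was lower on array 1, and Tardbp and Hmgb3 on array 3. The part of either control was not tested beyond fits with a covariate. With the actin ratio as a covariate, 9 of the 10 largest falls turned positive, Tardbp to 0.21, Msh6 to 0.42, Hmgb3 to 0.28 and Rabggtb to 3.01 among them, and of the 10 largest rises Meg3 and Zfp783 turned negative. No gene passed with the actin ratio, where the median SE was 0.71, so a turned sign does not show a reversal. With the spike level as the covariate 2 of the falls turned positive, Exosc7 and Copb1, and none of the rises turned.

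The other large falls were those of Rnf145 (-3.08), a ubiquitin ligase of the endoplasmic reticulum, Prpf38a (-3.08), a splicing factor, Atp6v1h (-2.98), of the vacuolar proton pump, and Rabggtb (-2.97), of the enzyme that prenylates Rab proteins. Exosc7 (-2.92), of the RNA exosome, Pdia3 (-2.92), a disulfide isomerase, and Copb1 (-2.83), of the COPI vesicle coat, complete the 10. None of these 10 was called in old against young HSC. Rnf145, for example, was at 2274, 1781 and 2089.6 in young, 299, 381 and 97.8 in 32-week and 2779, 2415 and 2767 in old HSC. The old arrays all lay above the young ones, and the old minus young difference was 0.38.

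A small group of genes moved the same way from young to 32 weeks as from young to 24 months. These were 39 genes (0.289% of those tested), 25 higher and 14 lower in both. They are 1.19% of the calls at 32 weeks and 21.7% of the calls in old HSC. Calls in old HSC use the pooled variance described above, so the number of shared genes depends on it as well. Both differences are read against the same 3 young arrays, so a young array that strays moves both together. All 39 had 32-week arrays that did not overlap the young ones, against 38.3% of all tested genes. They were called on these same arrays, so this adds no support. The count was 46 without 32-week array 3 and 83 without array 1. It ranged from 17 to 25 when 1 young array was left out, and 14 of the 39 stayed in all 9 fits that left out 1 young, old or 32-week array. It was 385 with array weights and 116 without the 2 arrays with high hybridisation controls, and 36 of the 39 were in each of these. The 2 arrays, by mean log2 level, were 32-week array 1 (12.82, against 10.91 and 11.49 on arrays 2 and 3) and mutator array 1 (12.93). The mean intensity of 32-week array 1 was also the lowest of its group, at 211 against 250 and 230.

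**Figure D2:**
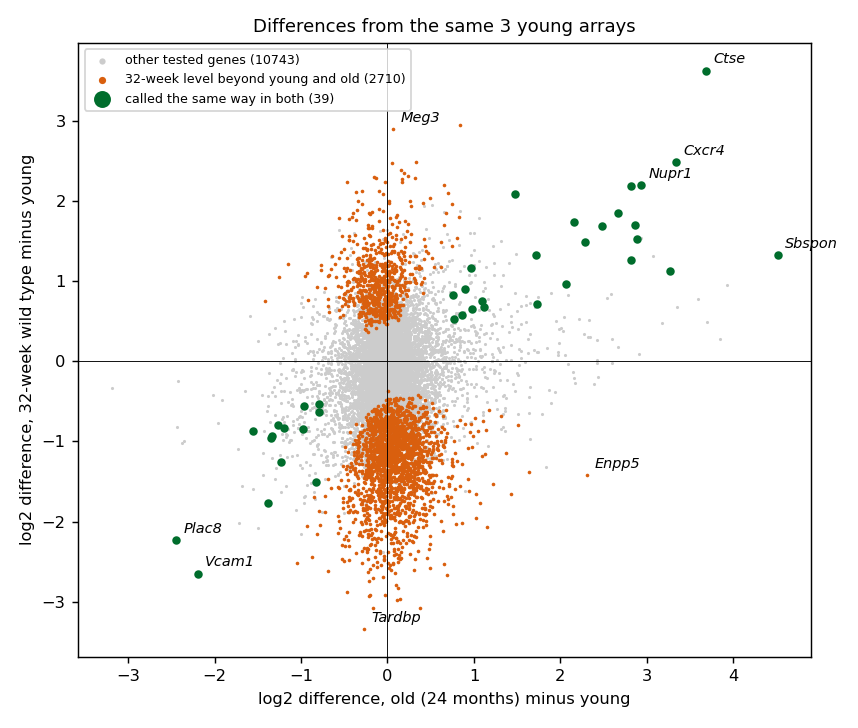
Each point is a gene, with the log2 difference of old minus young HSC across and of 32-week wild-type minus young HSC upward; both use the same 3 young arrays. Green points are the 39 genes called the same way in both, and orange points are genes called beyond young and old together (1 of the 2711, Ctr9, is drawn in green); Ctse, Cxcr4 and Nupr1 lie high in both, and Tardbp and Meg3 near 0 across.

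Ctse led this group: its old arrays stood at 4258, 4890.1 and 4531, level with the 32-week arrays, and the old minus 32-week difference was 0.06 (adjusted p = 0.883). Cxcr4 encodes the receptor for the chemokine CXCL12, which holds HSC in the marrow. Its intensity was 198, 167 and 159 on young, 1736, 769 and 869 on 32-week and 2057, 2043 and 1653 on old arrays. Every 32-week array was above the young ones, array 1 reached into the range of the old, and the differences from young were 2.49 ± 0.40 (SE, adjusted p = 0.00153) at 32 weeks and 3.34 at 24 months. Nupr1, a small chromatin-bound protein of stress responses, was at 52.8, 44.6 and 67.6, 299, 235 and 411 and 544, 466 and 559 on young, 32-week and old arrays. The 3 groups lay in the order of age with no overlap, and the rise of 2.20 ± 0.22 (SE, adjusted p = 0.000197) at 32 weeks was short of that at 24 months by 0.73 (adjusted p = 0.0275).

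Clu, the secreted chaperone clusterin, was at 138, 189.7 and 204 in young, 588, 523 and 2012 in 32-week and 1557, 1112 and 1364 in old HSC. Array 3 alone was above the old arrays, the other 32-week arrays lay between young and old, and the rise was 2.19 ± 0.43 (SE, adjusted p = 0.00448). Of the other 3 probe sets of Clu, 2 passed (2.13 and 2.45) and 1 did not (1.34). Mt1, metallothionein, which binds zinc and copper, was at 72.8, 69.6 and 58.7, 356, 168 and 371 and 738, 413 and 433 on young, 32-week and old arrays. All 32-week arrays exceeded the young ones by a difference of 1.85 ± 0.30 (SE, adjusted p = 0.00168), but its second probe set gave 0.16 and was not called.

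Selp encodes P-selectin, an adhesion protein of platelets and endothelium that old HSC express. Its levels were 117, 139 and 201 in young, 335, 462 and 623 in 32-week and 1138, 1343 and 1144 in old HSC. The 32-week arrays lay between the others without overlap, 1.53 ± 0.26 (SE, adjusted p = 0.00214) above young and 1.36 below old on the log2 scale (adjusted p = 0.00264), and all 3 probe sets of Selp passed. Gda, guanine deaminase, rose by 1.73, Zg16, a secreted lectin, by 1.70, Adgrg2, an adhesion G protein-coupled receptor, by 1.69 and Pkp2, a desmosome protein, by 2.08. In old HSC the differences of these 4 were 2.15, 2.86, 2.48 and 1.48. Pkp2 rests on 1 probe set of 3, as the others gave 0.62 and 0.15. So does Gda at 32 weeks, where the others gave 0.34 and -0.15, while in old HSC all 3 were called (2.37 and 2.47 for the others).

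**Figure D3:**
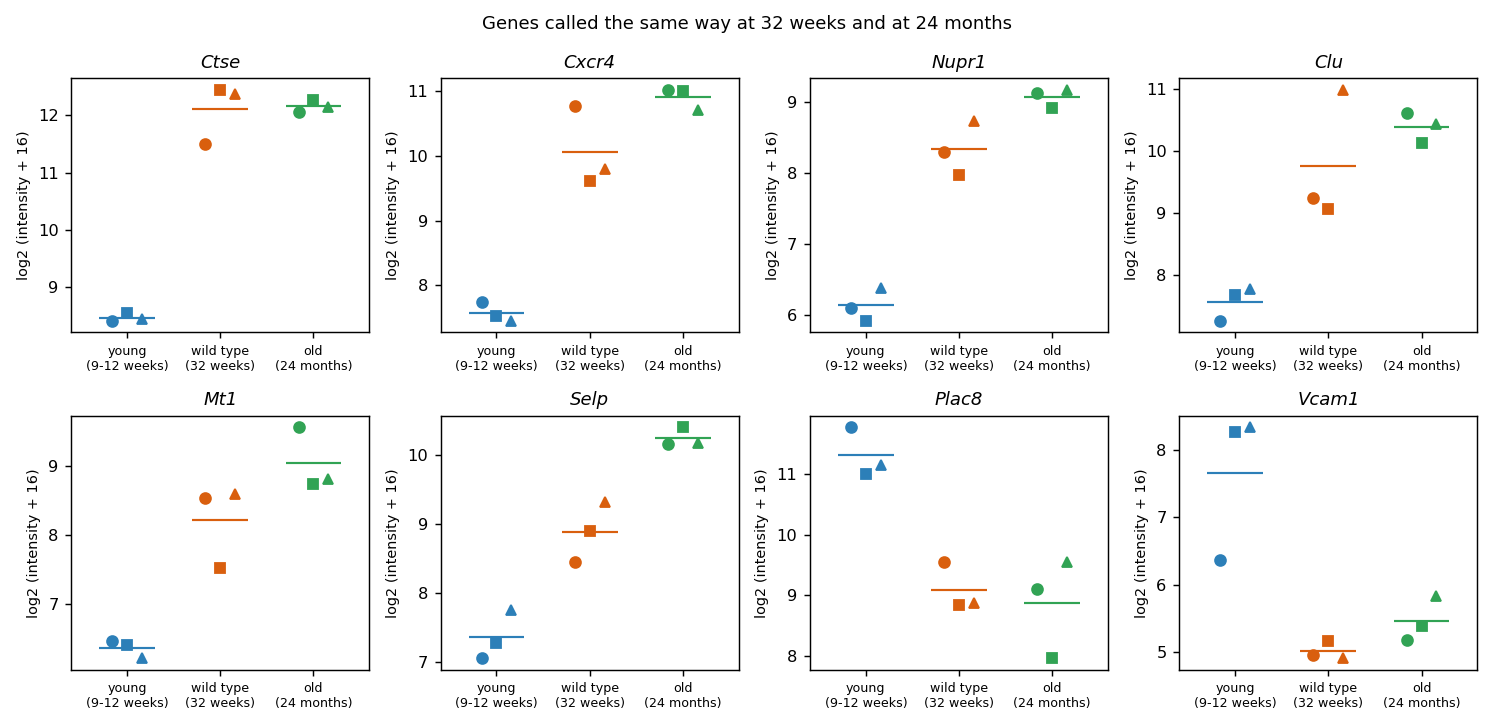
Each panel shows the log2 (intensity + 16) of 1 gene, with a point for each of the 3 young, 3 32-week wild-type and 3 old arrays and a line for the group mean; the vertical scales differ. Ctse is as high at 32 weeks as in old HSC, Nupr1 and Selp step up from group to group, and Plac8 and Vcam1 are low in both older groups.

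The promoters of 3 of these genes are shown, out of the 6 searched as described below. All 3 hold a match, as do 5 of the 6, so they are not an unselected sample of the 10 named rises. Of the 10 named rises, 6 have an entry in the RefSeq promoter table (GRCm38.p6), which holds 250 bases before to 50 after each start. They were searched on both strands for the core of the metal response element, written TGCACNC or TGCGCNC, and for the core ACGTG of hypoxia response elements. Capitals mark every match, and the letters run 5′ to 3′ on the gene's strand. Mt1 lies at chr8:94178839-94179138 (plus strand), Nupr1 at chr7:126625421-126625720 (minus strand) and Cxcr4 at chr1:128592250-128592549 (minus strand).
Mt1: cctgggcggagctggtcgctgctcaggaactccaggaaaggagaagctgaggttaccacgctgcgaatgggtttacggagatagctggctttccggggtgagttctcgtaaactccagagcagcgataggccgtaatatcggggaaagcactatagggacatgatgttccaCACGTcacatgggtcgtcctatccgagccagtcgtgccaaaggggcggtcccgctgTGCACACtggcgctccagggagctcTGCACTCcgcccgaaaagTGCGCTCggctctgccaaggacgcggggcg
Nupr1: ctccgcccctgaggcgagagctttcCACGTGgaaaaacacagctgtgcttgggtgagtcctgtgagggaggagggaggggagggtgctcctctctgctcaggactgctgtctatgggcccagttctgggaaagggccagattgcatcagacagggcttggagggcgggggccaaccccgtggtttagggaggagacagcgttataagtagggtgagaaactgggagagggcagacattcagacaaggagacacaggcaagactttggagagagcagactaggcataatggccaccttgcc
Cxcr4: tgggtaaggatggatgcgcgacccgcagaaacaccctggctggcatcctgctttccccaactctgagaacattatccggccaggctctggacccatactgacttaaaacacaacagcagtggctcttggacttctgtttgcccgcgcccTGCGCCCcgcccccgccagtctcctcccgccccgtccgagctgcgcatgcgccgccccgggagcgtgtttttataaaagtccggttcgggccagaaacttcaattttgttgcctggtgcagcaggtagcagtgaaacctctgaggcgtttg
Mt1 had 3 metal response cores, 2 of the first spelling and 1 of the second, and 1 ACGTG. Nupr1 had ACGTG on both strands at a single palindrome, and Cxcr4 had 1 TGCGCNC. Of the other promoters searched, Selp had 1 TGCACNC, Gda had 1 ACGTG and Adgrg2 had no match. Over 32851 mouse promoters of the same length, 12.59% held TGCACNC, 15.39% TGCGCNC and 19.62% ACGTG, so single matches are common. A match says only that these letters are present.

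How far the 39 genes had moved by 32 weeks varied. In 30 of them the old and 32-week levels did not differ past the threshold, which does not show that they were alike. In 8 the old level lay further out: Nupr1, Selp, Sbspon, Sult1a1, Clca3a1, Clec1a, Aldh1a1 and Gm5148. Sbspon, a secreted matrix protein, was at 16.3, 14.1 and 20.6 in young, 23.3, 93.3 and 114 in 32-week and 948, 882 and 470.4 in old HSC. Its young arrays were at background and its 32-week arrays well short of the old, with differences from young of 1.32 ± 0.44 (SE, adjusted p = 0.0488) and 4.51. Sult1a1, a sulfotransferase of phenols, was at 332, 369 and 317, 781, 778 and 961 and 2617, 2233 and 2605. Its 3 groups were tight and separate, at 1.26 above young at 32 weeks and 2.81 at 24 months. Aldh1a1, a retinaldehyde dehydrogenase used as a stem cell marker, gave 0.72 and 1.73, and Clca3a1 gave 1.13 and 3.26.

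Among the 14 shared falls, Plac8, a small cysteine-rich protein of myeloid and lymphoid progenitors, was at 3493, 2041 and 2272 in young, 730.1, 444 and 451 in 32-week and 533, 233 and 738 in old HSC. The older groups overlapped each other and not the young one, and the difference was -2.23 ± 0.38 (SE, adjusted p = 0.00217). Vcam1, an adhesion protein of marrow macrophages and stroma, was at 66.7, 292 and 307 in young and 14.9, 19.9 and 14.0 in 32-week HSC, where it was at background. Young array 1 was far below the other young arrays, the difference was -2.65 ± 0.45 (SE, adjusted p = 0.00217), and its 2 other probe sets gave 0.05 and 0.16. The macrophage marker list holds Vcam1 itself. Of its 15 tested genes 4 were lower (26.7%, against 17.7% over all tested genes), Vcam1 among them, and none was higher. The median was -0.59 at 32 weeks and -0.56 at 24 months, where Vcam1 alone was called. The part of macrophages in the fall of Vcam1 was not tested. Slc40a1, the iron exporter ferroportin, also on that list, was at 227, 447 and 405 and 34.7, 78.3 and 115, a difference of -2.08 ± 0.36 (SE, adjusted p = 0.00242), and was not called in old HSC (-1.49, adjusted p = 0.0804).

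The remaining shared falls included immune and replication genes. Ncf1, of the NADPH oxidase of phagocytes, was at 166, 179.8 and 167 in young, 85.4, 84.7 and 72.0 in 32-week and 72.8, 57.9 and 44.3 in old HSC. All 32-week arrays were below the young ones and their lowest reached into the old range, with a difference from young of -0.95 ± 0.16 (SE, adjusted p = 0.00181). Cd86, a costimulatory protein, fell by 0.93, Chek1, a kinase of the replication checkpoint, by 0.83, and Pclaf, a partner of PCNA, by 0.87. Hpgd, which inactivates prostaglandins, fell by 1.77 to background, Tent5a by 1.25 and Pank1, of coenzyme A synthesis, by 0.84. With quantile normalization the probe set of highest mean for Pank1 changed, and the difference was 0.87 (adjusted p = 0.0114 in limma). Ctr9, of the PAF1 complex of transcription elongation, was lower at 32 weeks (-1.51) than at 24 months (-0.83), and it is the only one of the 39 that was also called below old HSC. Of its other 4 probe sets, 1 was called the opposite way (0.91).

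These 39 genes were also read under the control covariates. With the poly-A spike level in the fit, 38 of 39 kept their sign and 4 passed: Ctse (5.06), Sbspon (4.47), Gm10419 (3.72) and Selp (2.97). Sizes were not kept: these 4 grew, but Cxcr4 went from 2.49 to 0.14 ± 0.72 (SE, adjusted p = 0.927 in limma). Gda, Zg16, Ctr9 and Hpgd also shrank, to 0.87, 0.81, -0.56 and -0.59. Among the rest some shrank and some grew, such as Clu (3.72). With the actin ratio 29 kept their sign and none passed. Ctse was then 4.36 ± 0.84 (SE, adjusted p = 0.352 in limma). Clu and Mt1 turned to -0.21 ± 1.34 and -0.13 ± 0.85 (SE), both smaller than their SE. In 32-week mutator HSC, read against the same young arrays, 28 of the 39 were called the same way. Over all tested genes 17.2% were called there in either direction. The mutator arrays share the age, the high spikes and the high actin ratio of the 32-week wild-type arrays, so this is no independent support. Of the 39, Plac8 and Ncf1 were among those not called in mutator HSC, at -0.68 and -0.32. On the CLP arrays the median of the 25 shared rises lay at -1.42 to -1.05 relative to young HSC, and that of the 14 shared falls at -0.89 to -0.20. CLP are other cells, and the part of the spike level in these values was not tested.

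Most calls at 32 weeks did not lie on the path from young to old. In 2711 genes (20.1% of those tested and 82.9% of the calls) the 32-week level was called beyond both the young and the old level, above both in 708 (5.25%) and below both in 2003 (14.8%). Old against 32-week HSC gave 4004 calls (29.7%), of which 2848 (21.1%) were higher and 1156 (8.57%) lower in old HSC. Both comparisons share the 32-week arrays. The median difference from the young mean in the 708 genes was 0.87, 0.87 and 1.17 on the 3 32-week arrays, and in the 2003 genes it was -1.49, -0.80 and -1.31. On the old arrays these medians were -0.14 to -0.07 for the 708 genes and 0.04 to 0.11 for the 2003 genes.

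The same genes were displaced on the mutator and CLP arrays. The mutator arrays share the age of 32 weeks, the high actin ratio and the high spikes with the 32-week wild-type arrays. These deviations are from the same young mean that helped to choose the genes. On the mutator arrays the medians were 0.73 to 0.77 for the 708 genes and -1.12 to -0.73 for the 2003. On the CLP arrays, which hold other cells but also high spikes, they were 0.52 to 0.59 and -0.92 to -0.68. In mutator against young HSC, which uses the same young arrays, 1692 of the 2711 were called the same way (17.2% of all genes were called in that comparison). Mutator against 32-week wild-type HSC gave no call in limma (0%), with 977 genes at an unadjusted p under 0.05. The part of the spike level or the actin ratio in the displacement was not tested beyond the covariate fits, which put 48 genes in this class with the spike level and none with the actin ratio. Of the 55 genes called with the spike level, 27 were in this class without it and 20 were not called without it. Without 32-week array 3 the class held 2123 genes.

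**Figure D4:**
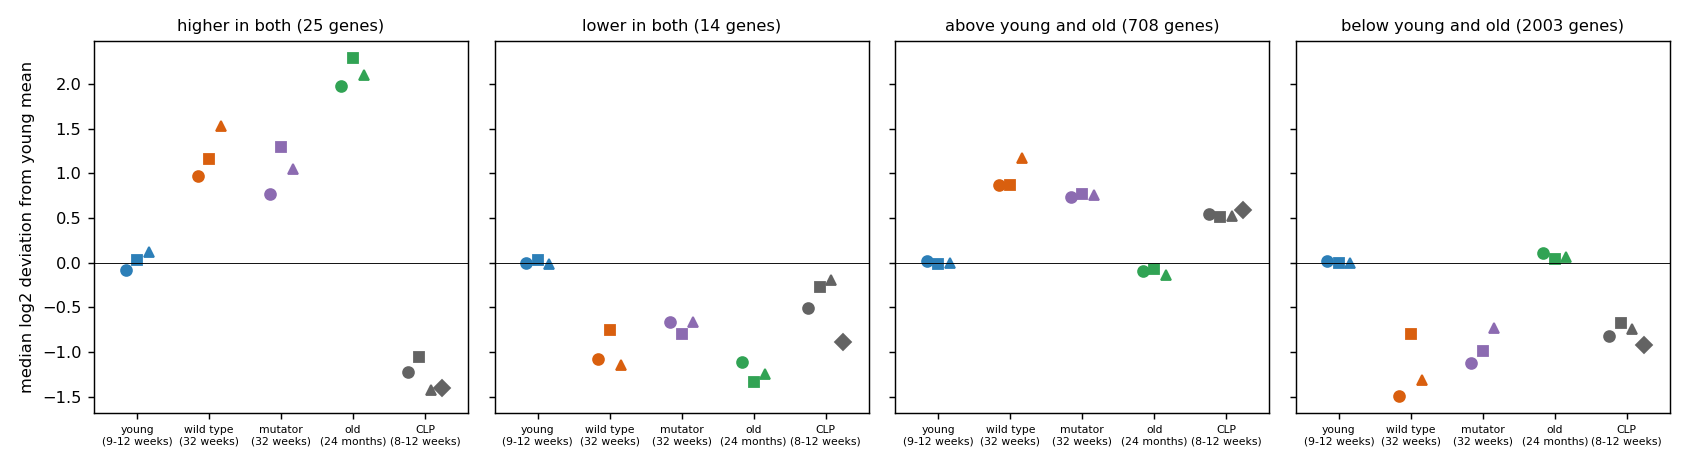
Each point is 1 array and shows the median log2 deviation from the young mean over the genes named above the panel, with arrays grouped as young, 32-week wild type, 32-week mutator, old and CLP. The shared genes are displaced on old arrays and both the 25 rises and the 14 falls lie below the young level on CLP arrays, whereas the genes beyond young and old are displaced on both 32-week groups and on CLP arrays but not on old ones; the young, 32-week wild-type and old values helped to define the groups of genes.

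Among genes above both, Cdk16, a cyclin-dependent kinase, was at 379, 476 and 421 in young, 2747, 1638 and 2145 in 32-week and 366, 419.6 and 369 in old HSC. The other 3 probe sets of Cdk16 gave 0.03, 0.01 and 0.20 and were not called. Elob, elongin B, was at 571, 474 and 493, 2764, 2299 and 2382 and 389.7, 300.3 and 412. The old arrays overlapped the young ones in Cdk16 and lay below them in Elob, and the 32-week arrays were above both groups, by 2.29 ± 0.24 (SE, adjusted p = 0.000202) and 2.24 ± 0.17 (SE, adjusted p = 6.07e-05) from young. On old arrays Ppp1r15a was at 453, 176 and 137, of which only array 1 exceeded the young range, and Meg3 at 132, 112 and 98.7, all within it. Malat1, a long noncoding RNA kept in the nucleus, was at 868, 1645 and 1430.4 in young, 4249.9, 5763 and 6777 in 32-week and 1904, 3039 and 1520.4 in old HSC. All 32-week arrays exceeded all young and old arrays, by 2.10 ± 0.32 (SE, adjusted p = 0.00132) from young. Of its other 6 probe sets none passed, with values from -1.06 to 1.76, so the call rests on 1 of 7. The B1 repeat control probe set, which reads a short interspersed repeat, was at 605 to 1175 on young, 2824 to 4391 on 32-week and 610 to 1223 on old arrays.

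Of 27 tested HSC identity genes 3 were higher (11.1%) and 6 lower (22.2%) at 32 weeks, with a median of -0.42. These shares are near the 6.51% and 17.7% over all tested genes. Kit, the receptor of stem cell factor, stood at 2391, 3603 and 3585 in young, 788, 1565 and 719.7 in 32-week and 3850.4, 5399 and 3314 in old HSC. All 32-week arrays were below the young ones by -1.69 ± 0.33 (SE, adjusted p = 0.00404), and both of its probe sets passed. Tek, the angiopoietin receptor TIE2, was at 499.6, 582 and 582 and 21.3, 211 and 141, a difference of -2.37 ± 0.54 (SE, adjusted p = 0.00919). Cd34, a surface sialomucin absent from long-term HSC of adult mice, was at 1917, 1223 and 1241 and 482, 481 and 347, a difference of -1.69 ± 0.28 (SE, adjusted p = 0.00177), with old arrays at 882, 559 and 768 (difference -0.97, adjusted p = 0.166). Cd48, absent from the most primitive HSC, fell by 0.74 to background.

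Other surface markers did not pass. Slamf1, which encodes CD150, was at 315, 298 and 315 in young and 359, 478 and 410.1 in 32-week HSC. The 32-week arrays were all slightly higher, the difference of 0.40 ± 0.20 (SE, adjusted p = 0.186) did not pass, and old HSC stood 1.07 above young. Procr, the protein C receptor, gave 0.06 ± 0.15 (SE, adjusted p = 0.807) and Flt3, a receptor of lymphoid-primed progenitors, -0.08 ± 0.22 (SE, adjusted p = 0.833). Polg, whose altered allele the mutator mice carry, gave -0.22 ± 0.20 (SE, adjusted p = 0.484), but another of its 3 probe sets, dim in young HSC, was called higher (1.05). Pdzk1ip1 and the homeobox gene Nkx2-3 were the largest rises on the list, at 1.36 and 1.27. Each rests on 1 probe set, as the other of Pdzk1ip1 gave -0.06 and the others of Nkx2-3 gave -0.11 and -0.41.

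A list was made of genes with a reported rise in aged HSC, for which these old and young arrays may themselves be one of the sources. Of its 40 tested members 13 were higher (32.5%) and 1 lower (2.5%) at 32 weeks, with a median of 0.54. Over all tested genes 6.51% were higher and 17.7% lower. At 24 months 27 members were higher, against 1.07% of all tested genes, with a median of 2.16. The median on the single 32-week arrays was 0.10, 0.67 and 0.87, so array 1 was closest to young. Of the 13, 12 are among the 39 shared genes. Over all tested genes the median at 32 weeks was -0.04.

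Many genes of protein folding, protein turnover and RNA processing were lower. The background against which these shares stand is 17.7% lower and 6.51% higher over all tested genes. Among the 3373 genes with the highest young level it is 39.4% lower, and most members of these lists are among them. Of 18 heat shock and chaperone genes 13 were lower and none higher, with a median of -1.09 (-1.22, -0.71 and -1.27 on the 3 arrays). Hspd1, the mitochondrial chaperonin HSP60, was at 4006, 4304 and 4097 on young and 940.0, 1507 and 594 on 32-week arrays, without overlap and with a difference of -2.11 ± 0.26 (SE, adjusted p = 0.000448). Hsp90b1, a chaperone of the endoplasmic reticulum, fell by 2.13. Of 34 proteasome subunits 17 were lower and 1 higher, with a median of -0.67 (-0.966, -0.211 and -0.995). Psmd2, of the regulatory cap, fell from 1965, 2006 and 2252 to 191, 599 and 516, a difference of -2.35 ± 0.33 (SE, adjusted p = 0.000841), and Psmc5 fell by 2.37. Within those 3373 genes 11 of 14 chaperone genes (78.6%) and 16 of 31 proteasome genes (51.6%) were lower.

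Of 42 splicing and RNA-binding genes 17 were lower and 2 higher, with a median of -0.64. Hnrnpm fell by 2.48 and U2af1, which reads the 3′ splice site, by 2.17. Of 31 translation factors 14 were lower and 1 higher, with a median of -0.49. Eif3m, of initiation, fell by 2.21 and Eef2, of elongation, by 1.55. Within the 3373 genes of highest young level 15 of 39 splicing genes (38.5%) and 13 of 30 translation factors (43.3%) were lower, shares near the 39.4% over all of them. In old HSC no gene of these 4 lists was called, and their medians lay between -0.23 and -0.02. In each of the 4 lists 32-week array 2 had the median nearest to 0. It had the lowest actin ratio (4.24) and also the lowest spike level (12.45) of the 32-week arrays. Array 3 had the highest actin ratio. Its median was below that of array 1 in the chaperone and proteasome lists and above it in the splicing and translation lists. The part of either control was not tested here.

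Ribosomal and mitochondrial lists held calls in both directions. In the cytosolic ribosomal, mitochondrial ribosomal and respiratory chain lists 18.6%, 13.9% and 29.0% were higher, against 6.51% over all tested genes. Lower were 18.6%, 16.7% and 18.8%, near the 17.7% over all tested genes. Within the 3373 genes of highest young level 20.5%, 30.8% and 22.8% were lower, below the 39.4% over all of them. Of 43 cytosolic ribosomal protein genes 8 were higher and 8 lower, with a median of 0.07 that turned negative with median centring. Rps19 dropped from 10154, 7092 and 6569 to 2512, 2778 and 1899, a difference of -1.71 ± 0.22 (SE, adjusted p = 0.000593), while Rpl37 rose from 572, 349.7 and 307 to 1165, 1028 and 925, a difference of 1.35 ± 0.27 (SE, adjusted p = 0.00449). The 2 genes moved opposite ways with no overlap between ages in either. Of 72 mitochondrial ribosomal proteins 10 were higher, among them Mrpl52 (1.99) and Mrpl28 (1.79), and 12 lower. Of 69 nuclear genes of the respiratory chain 20 were higher and 13 lower, with a median of 0.23. Its largest changes were falls, Atp5b from 4893, 5159.9 and 5087 to 593, 1703 and 647, a difference of -2.51 ± 0.52 (SE, adjusted p = 0.00556), and Sdhd, of complex II, by -2.36.

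In the immediate early, integrated stress response and antioxidant lists, 10%, 18.5% and 16% of the tested genes were higher, against 6.51% over all genes, and 0%, 22.2% and 16% were lower, against 17.7%. Of 30 immediate early and handling genes 3 were higher, Ppp1r15a, Nfkbiz (2.20) and Jund (1.36), and none was lower, with a median of 0.50 and a similar median of 0.44 in old HSC, where none was called. Of 27 integrated stress response genes 5 were higher and 6 lower. Atf4, its central transcription factor, was at 912, 565 and 443 in young, 2383, 2289 and 2052 in 32-week and 684, 449.6 and 488 in old HSC. All 32-week arrays were above all others in Atf4, by 1.84 ± 0.31 (SE, adjusted p = 0.00195) from young. The other 2 probe sets of Atf4 gave 0.09 and -0.29 and were not called. Gadd45a, a growth arrest gene of the same list, went the other way, from 223, 145 and 156 to 19.4, 20.3 and 18.9, a difference of -2.40 ± 0.22 (SE, adjusted p = 0.000125), and the amino acid transporter Slc7a5 fell by 1.99. Of 25 antioxidant and detoxification genes 4 were higher, Mt1 and Sult1a1 among them, and 4 lower, led by glutathione reductase (Gsr, -2.35) and Prdx3 (-1.12).

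Of 39 cell cycle genes 11 were lower and none higher at 32 weeks, with a median of -0.62 (-0.63, -0.09 and -0.79 on the 3 arrays). That is 28.2% lower, against 17.7% over all tested genes. Within the 3373 genes of highest young level 8 of 22 (36.4%) were lower, near the 39.4% over all of them. In old HSC 5 were lower, with a median of -1.04, where 0.259% of all tested genes were lower. Pcna, the sliding clamp of replication, was at 3968, 4901 and 4459.6 in young, 1245, 1978 and 389 in 32-week and 3047, 2734 and 3158 in old HSC. The 32-week arrays were lowest, with a difference from young of -2.14 ± 0.48 (SE, adjusted p = 0.00853). Rrm1, of ribonucleotide reductase, and Mcm3, of the replication helicase, fell by 1.87 and 1.67. Rbl2, the pocket protein p130 of resting cells, fell by 2.46, and Ccnd2, cyclin D2, rose by 1.41. That rise rests on 1 of 7 probe sets of Ccnd2, as 1 other was called lower (-0.61) and 5 were not called (-0.62 to 0.30). Of 23 interferon response genes 9 were lower (39.1%) and none higher, with a median of -0.73, among them Gbp3 (-2.24) and Ifit3 (-1.81). Within the genes of highest young level 6 of 12 (50%) were lower. None of the 23 was called in old HSC.

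Metabolic lists leaned lower too, at 40.9% of sterol, 34.6% of glycolysis and 39.1% of autophagy genes, against 17.7% over all tested genes. Of 22 sterol and fatty acid genes 9 were lower and 1 higher, with Srebf2, the transcription factor of sterol synthesis, at -1.50 and Cyp51 at -1.67. Of 26 glycolysis and hypoxia genes 9 were lower and 1 higher, with Pfkl at -1.96 and Pkm at -1.22. Of 23 autophagy and lysosome genes 9 were lower and none higher. Within the 3373 genes of highest young level 3 of 6 sterol, 7 of 16 glycolysis and 7 of 14 autophagy genes were lower. These are 50%, 43.8% and 50%, against 39.4% over all of the 3373, so the glycolysis share is near that background. Of 10 MHC class II genes, which present antigen, 2 were higher (20%, against 6.51% over all tested genes) and none lower. These were H2-Aa at 1.19 ± 0.19 (SE, adjusted p = 0.00146) and Cd74 at 0.68 ± 0.18 (SE, adjusted p = 0.0182). No gene of the B cell, T and NK cell, mast cell, lymphoid-primed or neutrophil granule lists was called, of 9, 8, 6, 14 and 14 tested. Over all tested genes 24.2% were called. The neutrophil list had array medians of -1.66, -0.50 and 1.14, which spread more widely than those of any list above.

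**Figure D5:**
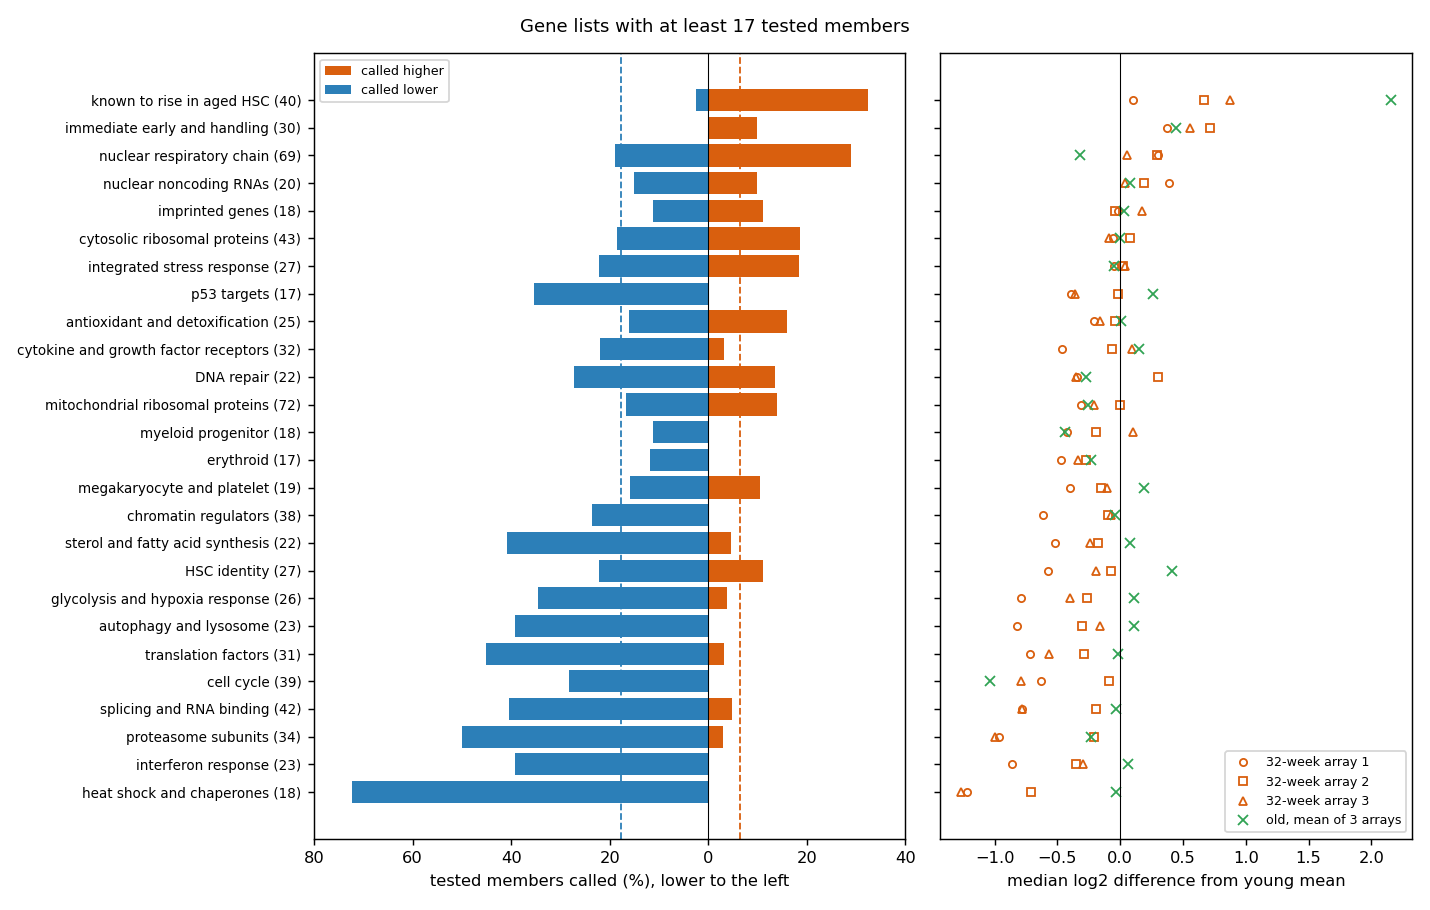
For each gene list with at least 17 tested members, the left panel gives the percent called lower (blue, to the left) and higher (orange, to the right) at 32 weeks, with dashed lines at 17.7% and 6.51%, the shares over all tested genes. The right panel gives the median log2 difference from the young mean on each 32-week array (open symbols) and for old HSC (crosses): chaperone, proteasome, splicing and translation lists lie below 0 on all 3 32-week arrays and between -0.23 and -0.02 in old HSC, and the aged HSC list lies furthest right in old HSC.

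In 12 genes (0.0889%) the 2 ages were called in opposite directions from young. Enpp5, a membrane protein of the nucleotide pyrophosphatase family, was at 112, 133 and 131 in young, 49.6, 33.9 and 29.2 in 32-week and 693, 859.9 and 532 in old HSC. The 32-week arrays were all below and the old arrays all above the young ones, with differences of -1.42 ± 0.22 (SE, adjusted p = 0.00148) and 2.31. Perp, a p53 target of cell junctions, went from 151, 107 and 116 to 52.2, 90.5 and 54.4 and 499, 288 and 379, with differences of -0.80 and 1.50. The others that were lower at 32 weeks and higher in old HSC were Itga6, Rprm, Dmd, Eya1, Sdc4 and Gem. Higher at 32 weeks and lower in old HSC were Rgs7bp (1.05 and -1.26), Jpt1 (0.91 and -0.73), Naa16 (0.77 and -0.92) and Ebi3 (0.75 and -1.42). Another probe set of Jpt1 was called lower at 32 weeks (-0.89), so the direction of Jpt1 depends on the probe set.

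Called genes differed from the rest in level, length and class. The median young intensity was 550.2 in genes that were lower at 32 weeks, 211 in genes that were higher and 95.1 in genes not called. With the genes split by young level into 4 equal groups, from lowest to highest, 19, 297, 744 and 1330 genes were lower and 63, 282, 302 and 232 higher, each of 3373. The median RefSeq gene span was 26702 bases in the lower and 15682 in the higher genes, against 21943 over all. Of 596 long noncoding RNAs 52 (8.72%) were higher and 17 (2.85%) lower, with a median of 0.15, whereas of 12774 protein-coding genes 816 (6.39%) were higher and 2369 (18.5%) lower, with a median of -0.06. Norad, a cytoplasmic long noncoding RNA, was among those lower, from 6216, 6799 and 6474 to 1568, 2859.8 and 2338, a difference of -1.56 ± 0.22 (SE, adjusted p = 0.000865). These are descriptions of called genes. Over all genes of the 4 groups of young level, from lowest to highest, the median difference was 0.11, 0.06, -0.31 and -0.56. How far calls are easier to make where levels are high was not tested.

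Probe sets of 1 gene lie at different places of its transcript and did not always move together. In 244 of 6149 genes with several probe sets, 1 was called higher and another lower. Among called genes with several probe sets, another probe set was called the same way in 135 of 565 higher and 499 of 1410 lower genes, and the opposite way in 80 and 124. Among the shared genes it was 10 and 3 of 27. Of 53 called genes named here that have several probe sets, another was called the same way in 21 and the opposite way in 3, which are Ccnd2, Ctr9 and Jpt1. In 29 no other probe set was called. Beside those already described these are Atp6v1h, Cd86, Clec1a, Cyp51, Gsr, Hpgd, Hsp90b1, Man2c1, Naa16, Nfkbiz, Norad, Pank1, Pdia3, Prpf38a, Rgs7bp, Sdhd, Slc40a1, Srebf2 and Zfp783.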

How the data were processed

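The authors deposited 1 linear intensity per probe set and array, for 45101 probe sets. How background, summary and normalization were handled is not given in the sources used here, nor is the reason for the difference in control probe sets. Values were used as log2 (intensity + 16). Of the probe sets, 34945 carried 1 symbol, 932 several and 9160 none, and 64 were controls. Each gene was read by its probe set of highest mean over the 12 HSC arrays, and kept if above the 40th percentile of an array on at least 3 of them (13492 genes). Group means at or below that percentile are called background.

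A limma model (version 3.58.1, R 4.3.3, lmFit and eBayes) estimated the group means over the 12 HSC arrays, with Benjamini-Hochberg adjustment over all tested genes; rose, fell, higher, lower and called mean an adjusted p under 0.05. The fit was tested on simulated data. A gene was shared when called the same way in old against young, and beyond both when called in 1 direction from young and from old. Differences are on the log2 (intensity + 16) scale and understate low genes. Named genes were the 10 largest non-overlapping changes in each direction, the 10 largest shared and the 10 largest beyond both in each direction (provisional symbols left out), up to 4 of each list, and fixed HSC, sex-linked and Polg genes; opposite genes and the further shared genes were named after their values were seen. Of 997 symbols in 36 lists, 902 matched and 855 were tested. Members, lists and rules were chosen with earlier results of these data known. The number of arrays limits the precision, and p-values measure the spread between these arrays. Alternatives were other normalizations, filters, pseudocounts (1 and 64), probe set rules, eBayes settings, array weights, a replicate block, covariates, subsets of groups and leaving out each array; the spike covariate, leaving out the 2 arrays with high hybridisation controls and averaging young arrays 2 and 3 were added after the data were seen.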

Additional observations from a re-analysis of the deposited data

Results flagged for a closer look

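On 32-week wild-type array 3 the intensity of Eif2s3y, a gene of the Y chromosome, was 552, against 6.85 to 12.7 on the other 11 HSC arrays. Eif2s3y was below the filter and in no comparison, and it drew attention because this array is labelled female. Xist was 9.12 on the same array. The 4 CLP arrays, also labelled female, had Eif2s3y at 423 to 758 and Xist at 9.22 to 16.8.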

How the results depend on the processing

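Counts of calls, of shared genes and of genes beyond both were 3269, 39 and 2711. With the actin ratio as a covariate all were 0, and with the poly-A spike level 55, 6 and 48; of the 6, 4 were among the 39. Array weights gave 385 shared genes, leaving out the 2 arrays with high hybridisation controls gave 116, and averaging young arrays 2 and 3 gave 2055 calls and 18 shared genes. Leaving out 1 array gave 2063 to 4174 calls, 17 to 83 shared genes and 1825 to 3622 beyond both, and 1506 called genes lost the call without at least 1 young or 32-week array. Under the other alternatives all counts stayed within 1.5 times. The shared genes were less stable than their number. Of the 39, 24 stayed with the mean of all probe sets, 26 with quantile normalization, 29 with median centring and 31 with the replicate block. The most that stayed under these alternatives was 36, with the filter at the 60th percentile. With the replicate number as a block (replicate block), the counts were 3414, 39 and 2816. Same-numbered young and 32-week arrays correlated at 0.24, 0.12 and 0.04, so the numbers were not taken as pairs, and 2 of 3 young arrays correlated best with their own number. Signal over background limits what can be said of genes near the 40th percentile, such as Vcam1 and Cd48 at 32 weeks.

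Signs turned as follows, and the cause was not tested, except that Pank1 was read by another probe set under quantile normalization. With the actin covariate no gene passed and the median SE was 0.71, so a turned sign does not show a reversal. The actin covariate gave Meg3 -3.49, Zfp783 -0.50, Tardbp 0.21, Rnf145 0.058, Prpf38a 0.75, Atp6v1h 0.48, Rabggtb 3.01, Hmgb3 0.28 and Exosc7 0.95. It also gave Pdia3 1.09, Msh6 0.42, Clu -0.21, Mt1 -0.13, Gda -0.40, Zg16 -1.46, Cd86 0.19, Chek1 0.78 and Kit 0.67. It also gave Cd34 0.049, Flt3 0.23, Nkx2-3 -0.23, Polg 0.035, Xist 9.02, Psmc5 0.55, Hnrnpm 1.70, Hspd1 0.23 and Hsp90b1 1.41. It also gave Eif3m 2.20, Eef2 0.52, Atp5b 1.35, Sdhd 2.19, Gbp3 0.023, Pcna 2.27, Mcm3 0.79, Prdx3 0.61 and Ccnd2 -0.63. It also gave Cyp51 1.84 and Perp 0.97. The spike covariate gave Exosc7 0.087, Copb1 0.23, Chek1 0.14, Tek 0.80, Polg 0.85, Eef2 0.80, Atp5b 0.59, Rbl2 0.094 and Cyp51 0.30. The same fit gave Pkm 0.36. Quantile normalization gave Pank1 0.87 and Flt3 0.080. The mean of all probe sets gave Slamf1 -0.035, Polg 0.29 and Jpt1 -0.019. Median centring gave Procr -0.030. Array weights gave Flt3 0.11. Without the high hybridisation arrays the value was Flt3 0.081. Over the fits that left out 1 array, Flt3 ran from -0.19 to 0.081, Procr from -0.029 to 0.15 and Xist from -3.77 to 0.39.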
